A study of Mus musculus with 24 samples.

Results

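The matrix metalloproteinases (MMPs), the ADAM and ADAMTS proteases, the ADAMTS-like proteins and the tissue inhibitors of metalloproteinases (TIMPs) were examined in derivatives of EO771, a mouse mammary carcinoma cell line. Members were chosen by symbol, as every gene of the batch 2 table whose symbol was Mmp, Timp, Adam, Adamts or Adamtsl followed by its number. This gave 31 of 13915 genes, and all 31 were also among the 55471 genes of the batch 1 table. A further 53 genes with such symbols were listed for batch 1 only. Of these, 24 had no read in any of the 12 libraries of batch 1 and 27 reached between 1 and 9 reads in their highest library. Adam32 reached 14 reads and Adam4 reached 10, so the family genes not listed for batch 2 were those with few or no reads in batch 1. Those 53 included the collagenases Mmp1a, Mmp8 and Mmp13, the inhibitors Timp3 and Timp4, the sheddase Adam12 and the aggrecanase Adamts5.

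The study compared 4 derivatives, all of them transduced with a retroviral vector, enriched by flow sorting and kept in culture without clonal selection. X2 cells carried the control vector. CCR7 cells expressed the transduced mouse chemokine receptor Ccr7 and were sorted as negative for podoplanin (PDPN), a surface glycoprotein. CCR7-PDPN cells carried Ccr7 and were sorted for high PDPN, which had arisen spontaneously, and X2-PDPN cells were vector control cells sorted for spontaneous PDPN. X2 and CCR7-PDPN were sequenced in both batches, CCR7 in batch 1 and X2-PDPN in batch 2, with 4 libraries per derivative and batch. Within a batch the 4 libraries of a derivative came from 1 cell population as technical replicates, and the errors given here do not cover differences between independently made populations.

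MMPs are zinc-dependent enzymes that cut collagens, laminins and other matrix proteins, and most are secreted as inactive precursors. Mmp14 encodes MT1-MMP, which is anchored in the plasma membrane and, together with the inhibitor TIMP2, activates the precursor of the gelatinase MMP2. ADAMs are membrane proteins that shed growth factors, adhesion molecules and receptors from the cell surface, whereas ADAMTS enzymes are secreted and process proteoglycans and procollagens. In mammary tumours much of the MMP content of the matrix comes from stromal cells, which a cultured line lacks.

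The promoters shown here are those of Mmp3 and Mmp10, neighbouring stromelysin genes on chromosome 9 whose reads were fewest in the CCR7-transduced cells, and of Mmp14, the most abundant MMP. Each is the 250 bases before the RefSeq start site, 5′ to 3′ on the plus strand of GRCm38.p6, at chr9:7445572-7445821 for Mmp3, chr9:7502092-7502341 for Mmp10 and chr14:54431348-54431597 for Mmp14. Capitals mark matches on either strand to the AP-1 motif, the TATA box and the GC box, and matches to different motifs did not overlap in these windows. The letters searched for the AP-1 motif, which Fos and Jun proteins bind, were TGANTCA. Those of the TATA box, which lies near the start of many inducible genes, were TATAAA. Those of the GC box, which Sp-family factors bind, were GGGCGG.
Mmp3: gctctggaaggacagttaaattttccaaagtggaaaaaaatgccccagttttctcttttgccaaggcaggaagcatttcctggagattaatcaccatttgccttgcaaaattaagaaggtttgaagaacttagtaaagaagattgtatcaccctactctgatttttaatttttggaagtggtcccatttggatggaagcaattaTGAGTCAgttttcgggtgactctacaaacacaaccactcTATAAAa
Mmp10: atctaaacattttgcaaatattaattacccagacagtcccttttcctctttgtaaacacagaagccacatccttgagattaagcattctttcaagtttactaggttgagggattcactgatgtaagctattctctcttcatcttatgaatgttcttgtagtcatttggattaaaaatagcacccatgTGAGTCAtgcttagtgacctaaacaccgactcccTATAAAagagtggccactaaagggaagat
Mmp14: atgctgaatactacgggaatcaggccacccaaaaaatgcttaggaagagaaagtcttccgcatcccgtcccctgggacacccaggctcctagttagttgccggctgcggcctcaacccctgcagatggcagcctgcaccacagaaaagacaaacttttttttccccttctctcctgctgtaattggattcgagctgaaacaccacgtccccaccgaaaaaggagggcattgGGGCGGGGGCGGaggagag
Both stromelysin promoters held an AP-1 match followed downstream by a TATA box, at bases 205 to 211 and 244 to 249 in Mmp3 and at bases 188 to 194 and 222 to 227 in Mmp10. The TATA match began 7 bases before the start site in Mmp3 and 29 bases before it in Mmp10, so its position differed. The Mmp14 promoter held neither an AP-1 match nor a TATA box and had 2 adjacent GC boxes, at bases 232 to 237 and 238 to 243. RefSeq entries were matched for 21 members, with 22 promoters. Among those 22, the AP-1 motif was found in 2 (Mmp3 and Mmp10), the TATA box in 3 (the same pair and Adamts1) and the GC box in 16, against 6.75%, 12.4% and 32.7% of all 32851 promoters of this length. A match is a description of the letters only. The entries of Mmp2, Mmp9, Mmp19, Adam9, Adam33, Adamts4, Adamts6, Adamts7, Adamts8 and Adamts10 were not matched.

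Each library held 22275468 to 33395418 counts (batch 1) or 22788542 to 35721027 (batch 2), and a count of 0 allows up to 3 reads. Ccr7 averaged 0.653 and 0.644 TPM (transcript abundance scaled by gene length and library total) in X2 of the 2 batches, 1.25 in X2-PDPN and 5311 to 5911 in the CCR7-transduced groups. Pdpn averaged 0.128 to 0.853 TPM in X2 and CCR7 and 49.9 to 52.9 in the PDPN-sorted groups, so both genes followed the labels. Of 6 mammary epithelial markers only Krt8 reached 1 TPM (group means 425 to 560.0), while Epcam and Cdh1, listed for batch 1 only, had group means of 0.027 to 0.133. The 5 endothelial markers summed to at most 1.41 TPM in any library. Of 5 macrophage and leukocyte markers only Cd68 reached 1 TPM, and the list's sum lay between 131 and 156 TPM in X2, 42.1 and 57.6 in CCR7, 56.9 and 69.2 in X2-PDPN, and 22.5 and 32.1 in CCR7-PDPN. The other 4 were listed for batch 1 only, with group means of at most 0.137 TPM, so the sums follow Cd68, and its part in the results below was not tested. Among 5 fibroblast markers Pdgfra had group means of 55.2 to 67.5 TPM and Col1a1 0.808 to 3.08, while in batch 1 Lum and Thy1 had 0 reads and Dcn at most 3 in a library.

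A small set of abundant genes made up most of the family's RNA in every derivative. On the TPM scale Timp2 was the highest, with group means of 290.0 to 386, followed by the sheddases Adam9 (193 to 259.7) and Adam10 (106 to 175). Mmp14 (81.6 to 105), Adam15 (70.9 to 93.8), Timp1 (71.8 to 89.3) and Adam17 (64.2 to 81.3) came next and overlapped in range. Adamts14 (51.5 to 66), Mmp11 (43.3 to 58.7), Mmp19 (28.6 to 56.7) and Adamtsl5 (34.1 to 38.8) formed a lower tier. In all, 25 members had a group mean of at least 1 TPM and 16 of at least 10, and 6 stayed below 1 TPM in every group (Mmp23, Adamts8, Adamts12, Adam33, Adamts3 and Adam1a). The summed level of the 31 members was 1284 ± 12 TPM (SD, n = 4) in X2 of batch 1 and between 1281 and 1323 in the other groups.

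**Figure D1:**
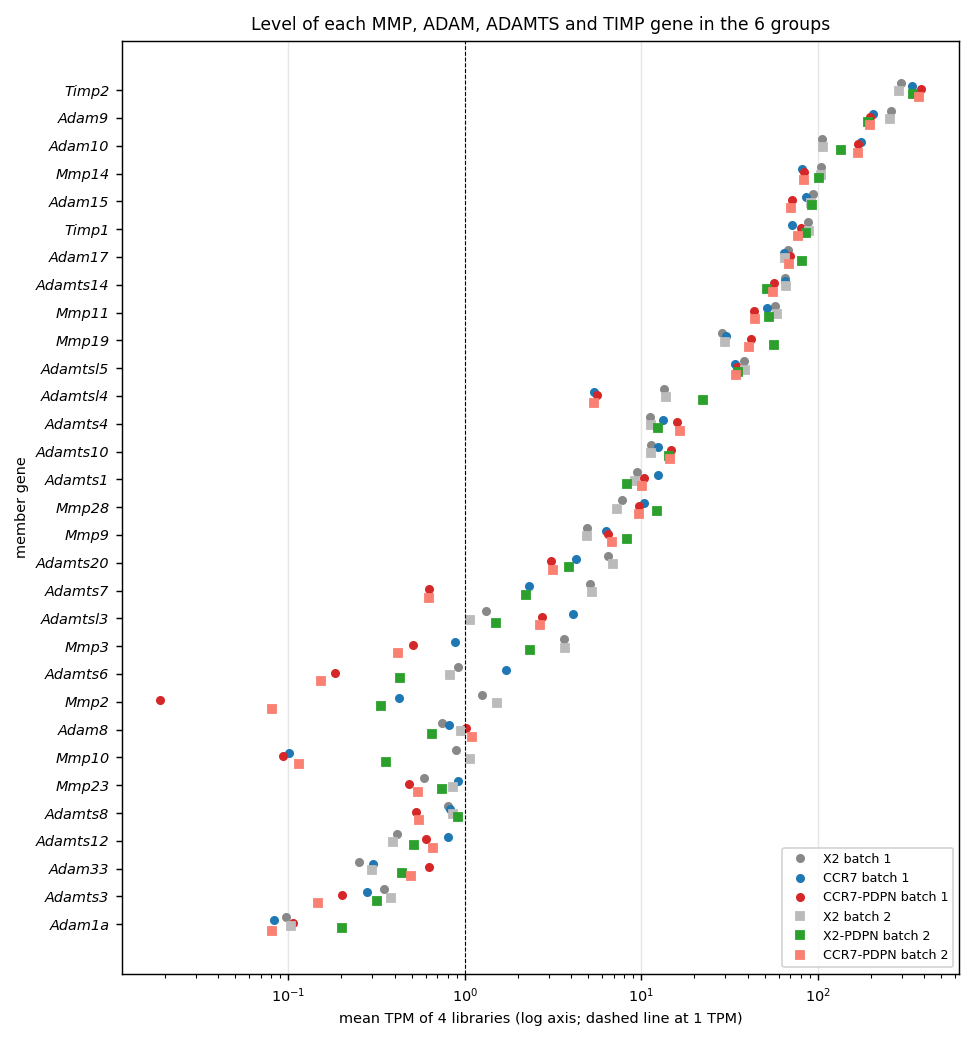
Mean TPM of 4 libraries (log axis) for each of the 31 members in the 6 groups; circles are batch 1 and squares batch 2. Members that reached 50 TPM spread over about 2-fold at most, Mmp19 the widest at 28.6 to 56.7, while Mmp2, Mmp3, Mmp10, Adamts6 and Adamts7 near or below the dashed line at 1 TPM spread over wide ranges.

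The balance of inhibitor to protease RNA differed between the derivatives. The ratio of summed TIMP to summed MMP TPM was 1.82 ± 0.045 (SD, n = 4) in X2, 2.26 ± 0.052 in CCR7 and 2.51 ± 0.074 in CCR7-PDPN of batch 1. In batch 2 it was 1.78 ± 0.023 for X2, 1.83 ± 0.067 for X2-PDPN and 2.43 ± 0.068 for CCR7-PDPN. The X2-PDPN mean was thus close to X2 in this ratio, and the CCR7-transduced means lay above both. In X2-PDPN both sums were higher than in X2 (TIMPs 430.2 ± 16 against 379 ± 2.8, MMPs 235 ± 2.4 against 213 ± 3.6), whereas in CCR7-PDPN of batch 2 the TIMP sum was 451 ± 8.7 and the MMP sum 186 ± 4.2. Mmp14 alone held 43 ± 0.43% to 50.03 ± 0.92% of the MMP sum. These ratios describe RNA levels and were not tested.

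Of the 31 members, 29 passed the filter on low counts in each batch, and Mmp10 and Adam1a did not. Each comparison was made within a batch by edgeR's quasi-likelihood test, with p-values adjusted over all genes tested, and the 3 comparisons of a batch share libraries. A gene is called higher or lower here when its adjusted p was under 0.05 and its log2 fold change beyond 1 in size, and log2 fold changes are given ± SE. In CCR7 against X2, 1 of 29 was called higher and 4 lower (3.45% and 13.8%, against 3.30% and 3.18% of all genes tested). In CCR7-PDPN against CCR7 the counts were 1 and 3 (3.45% and 10.3%, against 0.664% and 2.60%), and in CCR7-PDPN against X2 of batch 1 they were 2 and 6 (6.90% and 20.7%, against 4.09% and 5.36%). In batch 2, X2-PDPN against X2 had 0 and 2 (0% and 6.90%, against 3.51% and 1.55%), CCR7-PDPN against X2-PDPN 0 and 6 (0% and 20.7%, against 2.76% and 6.40%), and CCR7-PDPN against X2 1 and 7 (3.45% and 24.1%, against 3.96% and 5.67%). The share of members called lower was above the share of all genes in each of the 6 comparisons, and these shares were not tested. In all, 9 members were called in at least 1 comparison, 7 of them lower (Mmp2, Mmp3, Adamts3, Adamts6, Adamts7, Adamts20 and Adamtsl4) and 2 higher (Adam33 and Adamtsl3). These 9 were 31.0% of the 29, against 15.0% of the 13030 genes tested in both batches, a difference that was not tested. In X2-PDPN against X2 the count of 2 became 4 without X2 replicate 1 or 3 and 5 without X2-PDPN replicate 3, as Mmp10 or Adam1a then passed the filter or Adamts6 the fold threshold. When the test itself was made against a log2 fold change of 1 (glmTreat), the calls numbered 3 for CCR7 and 5 for CCR7-PDPN over X2 of batch 1, and in batch 2 they numbered 1 for X2-PDPN over X2 and 3 between the PDPN-sorted groups. They numbered 3 for CCR7-PDPN over CCR7 and 6 for CCR7-PDPN over X2 of batch 2.

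At an adjusted p under 0.05 without the fold threshold, members went both ways. The numbers higher and lower were 9 and 12 in CCR7 against X2 (all genes 24% and 25.2%), 6 and 11 in CCR7-PDPN against CCR7 (20.9% and 20.7%) and 12 and 12 in CCR7-PDPN against X2 of batch 1 (30.3% and 30.6%). In batch 2 they were 8 and 10 in X2-PDPN against X2 (28.2% and 28.5%), 9 and 15 in CCR7-PDPN against X2-PDPN (31.2% and 32.0%) and 11 and 15 in CCR7-PDPN against X2 (32.0% and 32.8%). The median log2 fold change of the 29 lay between -0.23 and 0.06 over the 6 comparisons, and that of all genes between -0.0033 and 0.0033. None of the 10 members that reached 50 TPM in a group was called in any comparison, their greatest change being 0.92 on the log2 scale, and 4.85% of all 4657 genes at that level were called in at least 1. Of the 13 tested members below 10 TPM in every group 8 were called, against 36.3% of all 3788 genes below that level, so calls were more frequent among scarce genes in general.

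**Figure D2:**
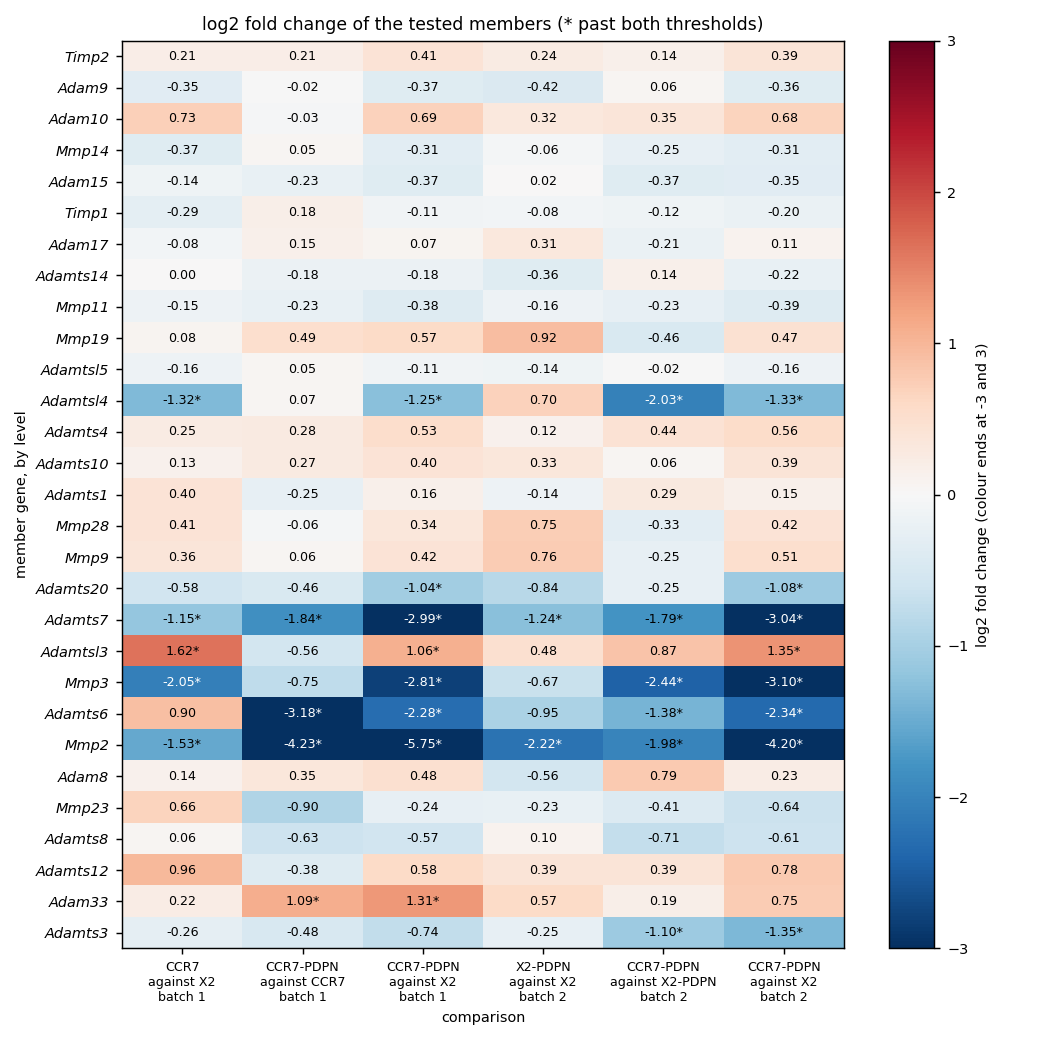
log2 fold change of the 29 tested members (rows, by level) in the 6 comparisons (columns); an asterisk marks members past both thresholds and colour ends at -3 and 3. Blue cells gather in the lower rows, with Mmp2 at -5.75 and Adamts7 at -2.99 in CCR7-PDPN against X2 of batch 1, while the upper rows stay within 1 of 0.

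Mmp14, the pericellular collagenase, was lower in the CCR7-transduced cells, while X2-PDPN against X2 did not pass the test. The gene lies at chr14:54431612-54445364 on the plus strand (GRCm38, as given with the authors' counts, like all gene positions here). Its TPM was 107, 101, 107 and 105 in the 4 libraries of X2, 85.4, 80.8, 80.0 and 80.2 in CCR7 and 84.2, 84.1, 81.1 and 83.4 in CCR7-PDPN of batch 1. In batch 2 it was 104, 103, 103 and 109 for X2, 103, 99.2, 100.2 and 102 for X2-PDPN and 84.6, 87.9, 80.6 and 80.9 for CCR7-PDPN. All CCR7 and CCR7-PDPN libraries lay below all X2 and X2-PDPN libraries of their batch. On the log2 scale the change was -0.37 ± 0.03 (adjusted p = 7.5e-09) in CCR7 against X2, -0.31 ± 0.03 (adjusted p = 4.2e-12) in CCR7-PDPN against X2 of batch 2 and -0.06 ± 0.03 (adjusted p = 0.082) in X2-PDPN against X2, all within the fold threshold. The genes within 5 Mb of Mmp14 on chromosome 14 shifted too, with a median of -0.43 in CCR7 against X2 and -0.53 in CCR7-PDPN against X2 of batch 1. With that median subtracted Mmp14 stood at 0.06 and 0.22 in these 2 comparisons, so it was lower than in X2 by itself and higher relative to its neighbours. The part of the neighbouring genes in the result was not tested.

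The inhibitors differed from each other. Timp2, the inhibitor that also serves as a docking partner of MT1-MMP, had 306, 288, 291 and 293 TPM in X2, 334, 339.9, 342 and 347 in CCR7 and 389, 402, 389 and 365 in CCR7-PDPN of batch 1. In batch 2 the libraries had 296, 289, 283 and 292 for X2, 348, 334, 339 and 358 for X2-PDPN and 377, 382, 366 and 368 for CCR7-PDPN. The groups did not overlap in either batch and were ordered X2, then CCR7 or X2-PDPN, then CCR7-PDPN. Each against X2 of its own batch, Timp2 changed by 0.21 ± 0.03 (adjusted p = 7.2e-06) for CCR7, 0.24 ± 0.03 (adjusted p = 3.5e-10) for X2-PDPN and 0.41 ± 0.03 (adjusted p = 1.4e-10) for CCR7-PDPN of batch 1. The ratio of Timp2 to Mmp14 TPM was 2.81 ± 0.063 (SD, n = 4) and 2.77 ± 0.071 in X2 of the 2 batches, 3.42 ± 0.073 in X2-PDPN, 4.18 ± 0.19 in CCR7, and 4.64 ± 0.20 and 4.47 ± 0.094 in CCR7-PDPN. Timp1, a broad soluble inhibitor, had 87.3, 82.7, 95.3 and 85.2 TPM in X2, 68.4, 79.3, 74.3 and 65.2 in CCR7 and 76.9, 78.7, 86.6 and 79 in CCR7-PDPN of batch 1. It was lower in CCR7 than in X2 (-0.29 ± 0.06, adjusted p = 7.8e-04) and higher in CCR7-PDPN than in CCR7 (0.18 ± 0.06, adjusted p = 0.028). In batch 2 its group means were 89.3 for X2, 85.3 for X2-PDPN and 77.1 for CCR7-PDPN, and CCR7-PDPN was lower than X2 (-0.20 ± 0.06, adjusted p = 0.002), which did not pass the test in batch 1 (-0.11 ± 0.06, adjusted p = 0.15).

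The gelatinases, which cut type IV collagen and denatured collagen, went opposite ways. Mmp2 was a low transcript in X2 and close to absent in CCR7-PDPN. The gene lies at chr8:92827291-92853420 on the plus strand. Its reads numbered 30, 32, 25 and 40 in X2, 15, 6, 15 and 9 in CCR7 and 0, 0, 1 and 1 in CCR7-PDPN of batch 1, and 33, 40, 34 and 54 for X2, 13, 5, 6 and 12 for X2-PDPN and 3, 2, 2 and 1 for CCR7-PDPN of batch 2. No library of CCR7, X2-PDPN or CCR7-PDPN reached the lowest X2 library of its batch, and CCR7-PDPN lay below CCR7 in batch 1 and below X2-PDPN in batch 2. Pooled over libraries and scaled by depth, Mmp2 reads in CCR7-PDPN were below those of X2 by 68.8-fold (95% interval 18.7 to 575) in batch 1, where 2 reads were left, and by 19.8-fold (95% interval 9.83 to 46.8) in batch 2, intervals that cover counting error only. With the 3 groups of a batch in 1 fit, Mmp2 was called lower in each of the 6 comparisons. In CCR7-PDPN against CCR7 and against X2-PDPN it passed the filter on low counts only through its X2 reads. With only the 2 compared groups in the fit it was not tested there. The members called lower were then 2 and 5, not 3 and 6. With glmTreat its call was lost in CCR7 against X2 (adjusted p = 0.31) and in CCR7-PDPN against X2-PDPN (adjusted p = 0.19). The log2 fold change was -1.53 ± 0.28 (adjusted p = 1.0e-04) in CCR7 against X2, -2.22 ± 0.28 (adjusted p = 5.6e-09) in X2-PDPN against X2 and -4.20 ± 0.39 (adjusted p = 7.7e-13) in CCR7-PDPN against X2 of batch 2. In bulk RNA, fewer cells that express a gene and less RNA per cell cannot be told apart.

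Mmp9, the other gelatinase, at chr2:164940780-164955850 on the plus strand, was higher in all 3 derivatives than in X2 and highest in X2-PDPN. The TPM values were 4.93, 5.27, 5.46 and 4.03 in X2, 5.81, 6.17, 6.71 and 6.69 in CCR7 and 5.52, 7.19, 5.96 and 7.25 in CCR7-PDPN of batch 1, and 5.75, 4.49, 4.83 and 4.51 for X2, 7.49, 7.77, 10.3 and 7.68 for X2-PDPN and 6.61, 7.08, 7.74 and 5.82 for CCR7-PDPN of batch 2. Every derived library lay above every X2 library of its batch. The log2 fold change was 0.36 ± 0.11 (adjusted p = 0.01) in CCR7, 0.42 ± 0.11 (adjusted p = 0.0023) in CCR7-PDPN and 0.76 ± 0.10 (adjusted p = 4.3e-08) in X2-PDPN, each against X2 of the same batch, and CCR7-PDPN was below X2-PDPN (-0.25 ± 0.10, adjusted p = 0.023). None of these passed the fold threshold.

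The stromelysins Mmp3 and Mmp10, broad-range enzymes that can also activate other MMP precursors, were lower with CCR7. Mmp3 had 4.55, 3.45, 4.01 and 2.62 TPM in X2, 0.833, 1.16, 0.688 and 0.851 in CCR7 and 0.714, 0.395, 0.506 and 0.411 in CCR7-PDPN of batch 1, and 3.82, 3.67, 4.23 and 3.14 for X2, 2.74, 2.30, 2.34 and 1.99 for X2-PDPN and 0.361, 0.395, 0.326 and 0.598 for CCR7-PDPN of batch 2. The CCR7 and CCR7-PDPN libraries overlapped each other and lay below all others, while X2-PDPN lay between X2 and CCR7-PDPN. It was called lower in CCR7 (-2.05 ± 0.24, adjusted p = 2.8e-07) and in CCR7-PDPN against X2 (-2.81 ± 0.26, adjusted p = 6.6e-09 in batch 1 and -3.10 ± 0.26, adjusted p = 4.5e-14 in batch 2) and against X2-PDPN (-2.44 ± 0.29, adjusted p = 5.5e-10). X2-PDPN against X2 gave -0.67 ± 0.18 (adjusted p = 0.0015), under the fold threshold.

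Mmp10 had too few reads for the fit. Its reads numbered 16, 5, 14 and 13 in X2, 2, 1, 3 and 0 in CCR7 and 0, 1, 4 and 0 in CCR7-PDPN of batch 1, and 16, 16, 10 and 15 for X2, 3, 9, 7 and 2 for X2-PDPN and 0, 0, 1 and 5 for CCR7-PDPN of batch 2. Every X2 library had more Mmp10 reads than every library of the other groups in its batch, by 5 against 4 at the closest in batch 1 and by 10 against 9 in batch 2. Pooled reads per depth were lower than in X2 by 8.30-fold (95% interval 3.55 to 23.7) in CCR7, by 10.4-fold (95% interval 4.16 to 33.5) and 9.37-fold (95% interval 4.05 to 26.6) in CCR7-PDPN of the 2 batches, and by 2.90-fold (95% interval 1.73 to 5.03) in X2-PDPN. Without the filter on low counts the same fit called Mmp10 lower than X2 in CCR7 (-2.93, adjusted p = 5.5e-06), in CCR7-PDPN of batch 1 (-3.21, adjusted p = 8.4e-07) and batch 2 (-3.10, adjusted p = 6.8e-06), and in X2-PDPN (-1.52, adjusted p = 0.0025). The transcripts of Mmp3 and Mmp10 share 65 windows of the read length of 75 bases, out of 1727 and 1648, so a small part of their reads cannot be assigned between them. Mmp11, stromelysin-3, was far more abundant and fell by less. It had group means of 57.1, 51.8 and 43.3 TPM in X2, CCR7 and CCR7-PDPN of batch 1, and 58.7, 52.7 and 44 in X2, X2-PDPN and CCR7-PDPN of batch 2, with no overlap between groups in either batch. CCR7-PDPN against X2 gave -0.38 ± 0.04 (adjusted p = 6.7e-08) in batch 1 and -0.39 ± 0.04 (adjusted p = 9.6e-11) in batch 2.

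Among the remaining MMPs, Mmp19, a secreted MMP of broad tissue distribution, was highest in X2-PDPN. Its TPM was 27.6, 27.3, 28.2 and 31.2 in X2, 29.1, 30.5, 31.1 and 30.5 in CCR7 and 42.9, 42.5, 41.9 and 40.2 in CCR7-PDPN of batch 1, and 30.1, 30.1, 29 and 30.0 for X2, 58.8, 54.9, 56 and 57.3 for X2-PDPN and 39.9, 39.3, 42.3 and 41 for CCR7-PDPN of batch 2. The PDPN-sorted libraries lay above all others, X2-PDPN above CCR7-PDPN, and X2 and CCR7 overlapped. X2-PDPN against X2 gave a log2 fold change of 0.92 ± 0.04 (adjusted p = 1.7e-23), a fold of 1.90, and CCR7-PDPN against CCR7 gave 0.49 ± 0.05 (adjusted p = 2.9e-08). Exons of Mmp19 overlap 789 bases of Tmem198b on the opposite strand, a gene with 702 to 1191 reads in batch 1, and how strand was used in counting is not given in the sources used here. Mmp28 (epilysin) was also highest in X2-PDPN, with group means of 7.75, 10.4 and 9.66 TPM in batch 1 and 7.25, 12.2 and 9.66 in batch 2, with the groups in the order given for Mmp19. Its log2 fold change was 0.75 ± 0.08 (adjusted p = 4.9e-11) in X2-PDPN and 0.41 ± 0.09 (adjusted p = 8.6e-04) in CCR7, each against X2. Mmp23 stayed below 1 TPM in every group mean and passed the test in 1 comparison, CCR7-PDPN against CCR7 (-0.90 ± 0.29, adjusted p = 0.017).

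Of the constitutive sheddases, Adam10, which releases Notch and several growth factor ligands, was higher with CCR7 and, to a lesser degree, in X2-PDPN. The TPM values were 106, 108, 108 and 102 in X2, 165, 185, 174 and 177 in CCR7 and 175, 169, 166 and 163 in CCR7-PDPN of batch 1, and 109.6, 103, 110.2 and 106 for X2, 143, 127, 137 and 132 for X2-PDPN and 168, 171, 169.8 and 167 for CCR7-PDPN of batch 2. X2-PDPN lay between X2 and CCR7-PDPN with no overlap. Adam10 changed by 0.73 ± 0.03 (adjusted p = 8.4e-14) on the log2 scale in CCR7, 0.69 ± 0.03 (adjusted p = 1.1e-13) in CCR7-PDPN and 0.32 ± 0.03 (adjusted p = 1.4e-12) in X2-PDPN, each against X2. Genes within 5 Mb on chromosome 9 moved with it, their medians being 0.49, 0.49 and 0.28 in the same comparisons, and their part in the result was not tested. Adam17 (TACE), which releases TNF and EGF-family ligands, had its highest level in X2-PDPN, with 80.4, 77, 82.9 and 84.6 TPM against 64, 66.5, 67.3 and 62.7 in X2 and 68, 69.9, 69.3 and 69.2 in CCR7-PDPN. X2-PDPN lay above both, by 0.31 ± 0.03 (adjusted p = 1.9e-12) over X2. In batch 1 its group means lay between 64.2 and 70.0. The ratio of Adam10 to Adam17 TPM was 1.57 ± 0.038 and 1.65 ± 0.073 in X2, 1.66 ± 0.089 in X2-PDPN, 2.73 ± 0.093 in CCR7 and 2.41 ± 0.028 and 2.44 ± 0.030 in CCR7-PDPN (SD, n = 4).

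Adam9, the most abundant sheddase, was lower in each derivative than in X2. It had 266, 261, 254 and 258 TPM in X2, 185, 207, 211 and 215 in CCR7 and 203, 194, 201 and 194 in CCR7-PDPN of batch 1, and 260.2, 252, 261 and 258 for X2, 199, 186, 195 and 192 for X2-PDPN and 198, 195, 201 and 196 for CCR7-PDPN of batch 2. All X2 libraries lay above all others. Its change was -0.35 ± 0.04 (adjusted p = 6.3e-08) in CCR7 and -0.42 ± 0.03 (adjusted p = 2.9e-18) in X2-PDPN, and the medians of the genes within 5 Mb on chromosome 8 were -0.29 and -0.26. Their part in the result was not tested. Adam15 fell in the CCR7-transduced cells, with group means of 93.8, 85.4 and 71.3 TPM in X2, CCR7 and CCR7-PDPN of batch 1 and 91.6, 93.2 and 70.9 in X2, X2-PDPN and CCR7-PDPN of batch 2. CCR7-PDPN against X2 gave -0.37 ± 0.03 (adjusted p = 1.3e-09) and -0.35 ± 0.03 (adjusted p = 1.1e-13) in the 2 batches, while X2-PDPN against X2 gave 0.02 ± 0.03 (adjusted p = 0.61).

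Adam33, studied mostly in airway smooth muscle and fibroblasts, and Adam8, a sheddase best known from leukocytes, were scarce. Adam33 had 11, 7, 13 and 11 reads in X2, 16, 12, 11 and 11 in CCR7 and 28, 26, 29 and 28 in CCR7-PDPN of batch 1, where CCR7-PDPN lay above both others. It was called higher in CCR7-PDPN against CCR7 (1.09 ± 0.23, adjusted p = 5.8e-04) and against X2 (1.31 ± 0.23, adjusted p = 5.3e-05), and the first fell below the fold threshold without CCR7 replicate 3 (0.96). In batch 2 its reads numbered 7, 20, 12 and 11 for X2, 15, 25, 27 and 12 for X2-PDPN and 16, 28, 22 and 16 for CCR7-PDPN, groups that overlapped. CCR7-PDPN against X2 was 0.75 ± 0.30 (adjusted p = 0.026) there, and passed the fold threshold only without X2 replicate 2 (1.08), the X2 library with 20 reads. Adam8 had group means of 0.652 to 1.10 TPM and fell from X2 to X2-PDPN (-0.56 ± 0.21, adjusted p = 0.021) and rose again from X2-PDPN to CCR7-PDPN (0.79 ± 0.21, adjusted p = 9.0e-04). Adam1a had 2 to 16 reads per library, and 77.0% of its read-length windows also occur in other transcripts, among them Mapkapk5, so its reads are uncertain.

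Adamts7, a secreted protease known for cutting cartilage oligomeric matrix protein, stepped down from X2 to CCR7 or X2-PDPN and again to CCR7-PDPN. The gene lies at chr9:90163069-90208071 on the plus strand. It had 5.08, 5.57, 4.87 and 5.03 TPM in X2, 2.08, 2.25, 2.69 and 2.20 in CCR7 and 0.595, 0.716, 0.642 and 0.569 in CCR7-PDPN of batch 1, and 5.06, 4.85, 5.38 and 5.73 for X2, 1.98, 2.24, 2.78 and 1.91 for X2-PDPN and 0.647, 0.586, 0.786 and 0.493 for CCR7-PDPN of batch 2. The 3 groups of each batch were separated without overlap. The log2 fold change was -1.15 ± 0.09 (adjusted p = 1.1e-09) in CCR7 and -1.24 ± 0.10 (adjusted p = 1.9e-14) in X2-PDPN, each against X2. From there to CCR7-PDPN it was -1.84 ± 0.13 (adjusted p = 4.7e-10) against CCR7 and -1.79 ± 0.15 (adjusted p = 5.9e-14) against X2-PDPN. Against X2 the CCR7-PDPN cells were 7.96-fold lower in batch 1 and 8.20-fold lower in batch 2. Adamts7 was called in all 6 comparisons, as was Mmp2 within the limits given above, and no other member was called in each. The stricter glmTreat test no longer called Adamts7 for CCR7 (adjusted p = 0.5) or X2-PDPN (adjusted p = 0.11) relative to X2. Its calls in the comparisons of CCR7-PDPN were kept by that test.

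Adamts6, a relative of the fibrillin-associated Adamts10, was higher in CCR7 and lower in both PDPN-sorted groups. The gene lies at chr13:104287835-104496695 on the plus strand. The TPM values were 1.02, 0.938, 0.714 and 1.01 in X2, 1.72, 1.81, 1.60 and 1.75 in CCR7 and 0.165, 0.167, 0.217 and 0.190 in CCR7-PDPN of batch 1, and 0.670, 0.883, 0.772 and 0.961 for X2, 0.206, 0.398, 0.654 and 0.460 for X2-PDPN and 0.0833, 0.183, 0.226 and 0.121 for CCR7-PDPN of batch 2. In batch 1 the 3 groups did not overlap, and in batch 2 the lowest X2-PDPN library lay within the CCR7-PDPN range. CCR7 against X2 gave 0.90 ± 0.13 (adjusted p = 6.2e-06), under the fold threshold, while CCR7-PDPN was called lower than CCR7 (-3.18 ± 0.17, adjusted p = 1.1e-11), X2 (-2.28 ± 0.19, adjusted p = 1.4e-09 and -2.34 ± 0.28, adjusted p = 1.3e-09) and X2-PDPN (-1.38 ± 0.32, adjusted p = 2.0e-04). X2-PDPN against X2 was -0.95 ± 0.22 (adjusted p = 3.5e-04) and passed the fold threshold without X2 replicate 1 (-1.04) or without X2-PDPN replicate 3 (-1.21). Adamts12 had 30 to 99 reads per library and was higher in CCR7 than in X2 (0.96 ± 0.21, adjusted p = 5.5e-04), passing the fold threshold without CCR7 replicate 1 (1.16) or without X2 replicate 2 (1.12). Adamts10 had group means of 11.3 to 14.7 TPM and passed the test once, in CCR7-PDPN against X2 of batch 2 (0.39 ± 0.13, adjusted p = 0.025).

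Among the proteoglycan-cleaving ADAMTS enzymes, Adamts20 was lower in every derivative. Its TPM was 5.51, 7.52, 6.40 and 6.38 in X2, 4.77, 3.88, 4.29 and 4.20 in CCR7 and 2.96, 2.65, 3.46 and 3.23 in CCR7-PDPN of batch 1, and 6.62, 6.99, 7.40 and 6.52 for X2, 3.37, 3.92, 4.41 and 3.80 for X2-PDPN and 2.74, 3.00, 3.84 and 3.13 for CCR7-PDPN of batch 2. X2 lay above all others, and X2-PDPN and CCR7-PDPN overlapped. It was called lower in CCR7-PDPN against X2 in batch 1 (-1.04 ± 0.09, adjusted p = 5.9e-09) and batch 2 (-1.08 ± 0.08, adjusted p = 1.1e-15), the first just under the fold threshold without CCR7-PDPN replicate 2 (-0.98) or X2 replicate 2 (-0.97). Adamts4, an aggrecanase, was higher in CCR7 (13.3 TPM) and CCR7-PDPN (15.9) than in X2 (11.2) of batch 1, by 0.25 ± 0.06 (adjusted p = 0.0011) and 0.53 ± 0.06 (adjusted p = 5.4e-08). In batch 2 CCR7-PDPN was again above X2 (0.56 ± 0.06, adjusted p = 3.4e-11), while X2-PDPN did not pass the test (0.12 ± 0.06, adjusted p = 0.1). The reads of Adamts4 are uncertain, since the strand setting of the counting is not given. Adamts1 was highest in CCR7, at 12.4, 13.1, 12.6 and 11.8 TPM against 9.33, 9.54, 9.45 and 9.39 in X2 (0.40 ± 0.06, adjusted p = 7.7e-06). Adamts8 stayed below 1 TPM in every group mean and fell from X2 to CCR7-PDPN (-0.57 ± 0.22, adjusted p = 0.03 in batch 1 and -0.61 ± 0.24, adjusted p = 0.024 in batch 2). The genes within 5 Mb of Adamts8 had median log2 fold changes of 0.48 and 0.49 in these comparisons, and with these medians subtracted Adamts8 passed the fold threshold there (-1.05 and -1.10) and in CCR7-PDPN against X2-PDPN (-1.03). Adamts20 likewise passed it in X2-PDPN against X2 (-1.05). The part of the neighbouring genes was not tested.

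Of the procollagen N-proteinases, which trim the amino end of fibrillar procollagens, Adamts14 was abundant and Adamts3 scarce. Adamts14 was lower in X2-PDPN (50.2, 50.5, 55.7 and 49.8 TPM) than in X2 (65, 67.3, 64.8 and 67.1), with no overlap and a log2 fold change of -0.36 ± 0.04 (adjusted p = 4.5e-12). It was also lower in CCR7-PDPN than in X2 (-0.18 ± 0.04, adjusted p = 7.3e-04 and -0.22 ± 0.04, adjusted p = 5.5e-07), while CCR7 against X2 gave 0.00 ± 0.04 (adjusted p = 0.93). Adamts3 had 18, 15, 16 and 15 reads for X2, 14, 15, 18 and 10 for X2-PDPN and 5, 5, 5 and 9 for CCR7-PDPN of batch 2. The CCR7-PDPN libraries lay below all others there, and it was called lower against X2 (-1.35 ± 0.35, adjusted p = 7.5e-04) and X2-PDPN (-1.10 ± 0.36, adjusted p = 0.0069). The second call was lost, at -0.97, -0.96 and -0.95, without CCR7-PDPN replicates 2 or 3 or X2-PDPN replicate 3. In batch 1 CCR7-PDPN against X2 did not pass the test (-0.74 ± 0.39, adjusted p = 0.11), and did so without CCR7-PDPN replicate 4 (-1.04, adjusted p = 0.048).

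The ADAMTS-like proteins lack the protease domain and bind microfibrils of the matrix. Adamtsl4 was lower with CCR7 and higher in X2-PDPN. The gene lies at chr3:95676201-95687917 on the minus strand and Adamtsl3 at chr7:82335694-82614450 on the plus strand. Adamtsl4 had 12.6, 13.3, 14.1 and 14.1 TPM in X2, 5.55, 5.02, 5.85 and 5.19 in CCR7 and 5.71, 5.67, 5.83 and 5.14 in CCR7-PDPN of batch 1, and 14.5, 13.1, 13.1 and 14.5 for X2, 22.2, 22.6, 22.1 and 23 for X2-PDPN and 5.69, 4.98, 5.82 and 5.23 for CCR7-PDPN of batch 2. CCR7 and CCR7-PDPN overlapped at about the same level, X2 lay above them and X2-PDPN above X2. The log2 fold change was -1.32 ± 0.07 (adjusted p = 1.2e-12) in CCR7, 0.70 ± 0.05 (adjusted p = 8.5e-15) in X2-PDPN and -2.03 ± 0.06 (adjusted p = 4.3e-29) in CCR7-PDPN against X2-PDPN, a fold of 4.07 lower. Adamtsl3 went the other way with CCR7, at 1.29, 1.37, 1.30 and 1.32 TPM in X2, 3.23, 4.53, 4.20 and 4.38 in CCR7 and 2.41, 2.72, 3.34 and 2.40 in CCR7-PDPN of batch 1, and 1.07, 0.940, 1.30 and 0.983 for X2, 1.54, 1.52, 1.61 and 1.34 for X2-PDPN and 2.37, 2.71, 3.14 and 2.504 for CCR7-PDPN of batch 2. Every CCR7-transduced library lay above every X2 library, and X2-PDPN lay between X2 and CCR7-PDPN. It was called higher in CCR7 (1.62 ± 0.12, adjusted p = 4.0e-10) and in CCR7-PDPN against X2 (1.06 ± 0.13, adjusted p = 3.4e-07 and 1.35 ± 0.12, adjusted p = 1.6e-13), the batch 1 value being 0.96 without CCR7-PDPN replicate 3. Adamtsl5 had group means of 34.1 to 38.8 TPM, with log2 fold changes between -0.16 and 0.05.

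**Figure D3:**
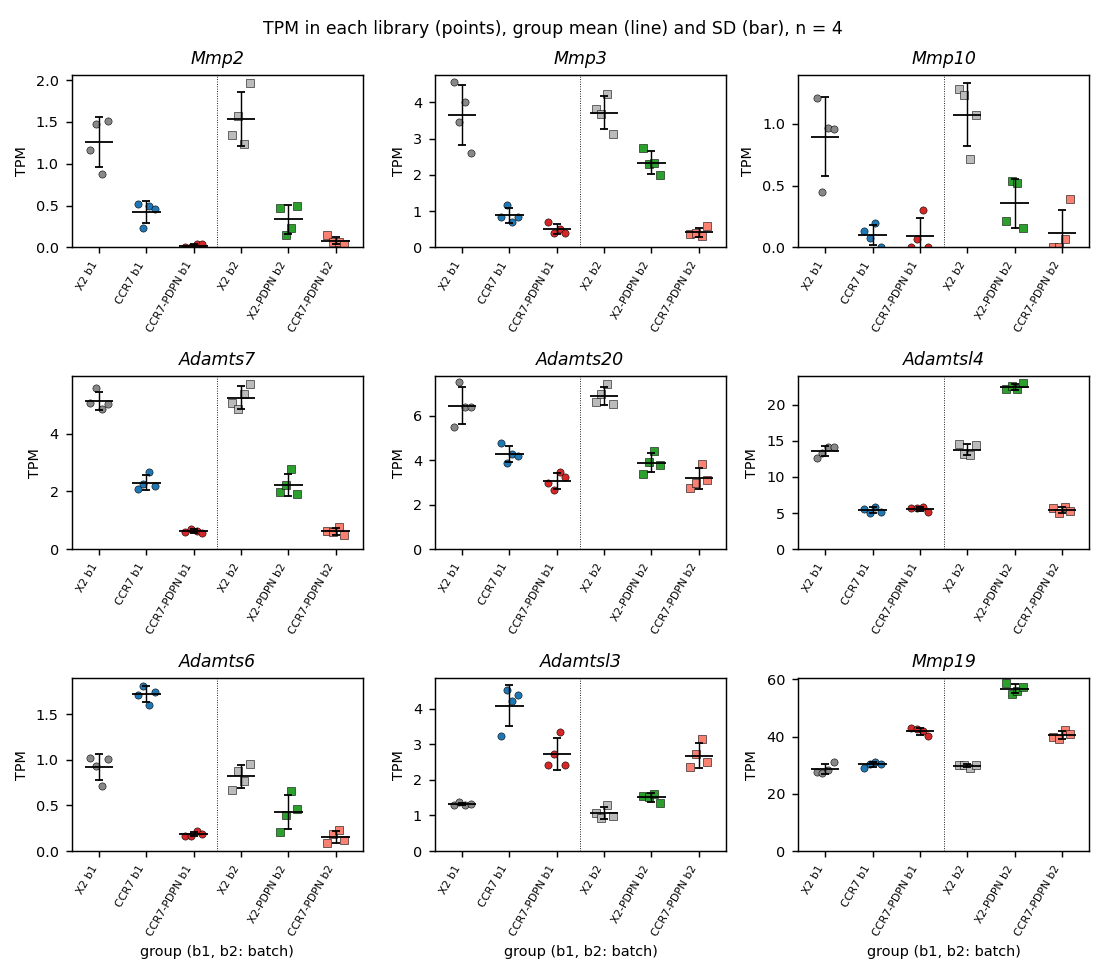
TPM in each library for 9 members in the 6 groups (b1 and b2 are the batches), with the group mean as a line and the SD as a bar, n = 4; each panel starts at 0. Mmp2, Mmp3, Mmp10, Adamts7 and Adamts20 are highest in X2 and lowest in CCR7-PDPN or at its level, Adamtsl4 and Mmp19 peak in X2-PDPN at 22.5 and 56.7 TPM, and Adamts6 and Adamtsl3 peak in CCR7 at 1.72 and 4.09 TPM.

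CCR7-PDPN against X2 was measured in both batches with no library in common. The study describes no independently made populations of X2 or CCR7-PDPN for the 2 batches. The log2 fold changes of the 29 members had the same sign in all 29, and Pearson's r across members was 0.973, given as a description since genes are not independent replicates. The median absolute difference between the batches was 0.045 on the log2 scale. Mmp2 differed most, by 1.55, with 2 reads left in batch 1 and 8 in batch 2, and among the other members the largest difference was 0.61 (Adamts3). Of the 29, 22 passed an adjusted p under 0.05 in both batches. The 7 members called in both were Mmp2, Mmp3, Adamts6, Adamts7, Adamts20 and Adamtsl4, all lower, and Adamtsl3, higher. With glmTreat Adamts20 was not called in either batch (adjusted p = 0.67 in batch 2), and Adamtsl3 was not called in batch 1. Of all genes, 30.3% were higher and 30.6% lower at that adjusted p in batch 1, and 32.0% and 32.8% in batch 2. The shares called higher and lower were 4.09% and 5.36% in batch 1 and 3.96% and 5.67% in batch 2. How many of all genes repeated in both batches was not determined, so the repeat is not shown to be particular to the members. Adam33 was called in batch 1 only and Adamts3 in batch 2 only, and the difference between batches was not tested. Both calls were lost with glmTreat (adjusted p = 0.52 for Adam33 and 0.73 for Adamts3).

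**Figure D4:**
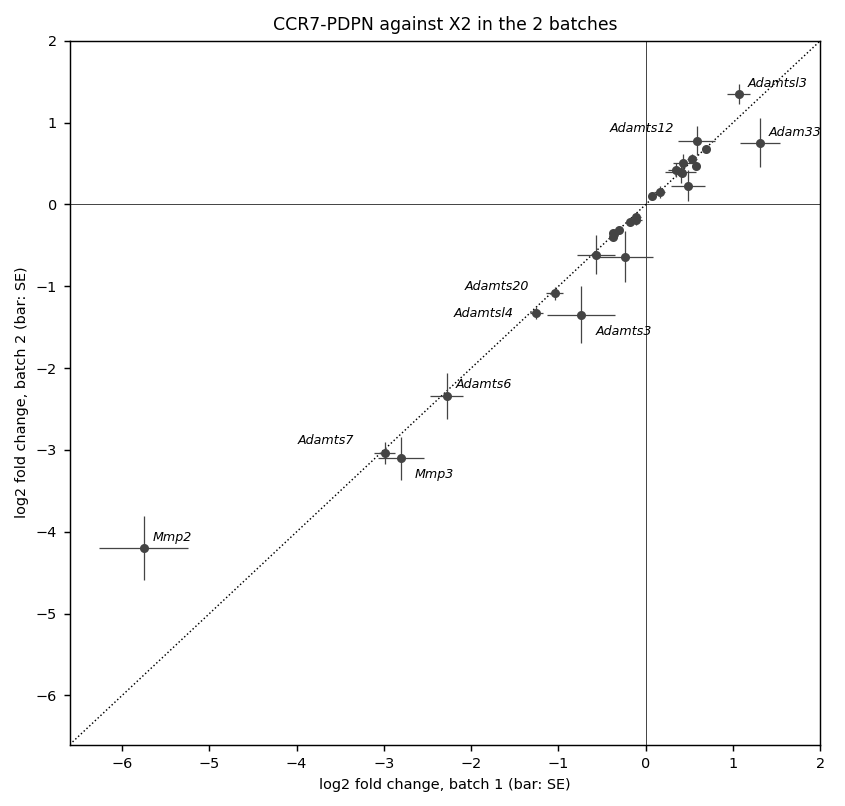
log2 fold change of CCR7-PDPN against X2 in batch 1 (x axis) and batch 2 (y axis) for the 29 tested members, with SE as bars and the dotted line marking equal values. Points follow the line from Mmp2 at the lower left to Adamtsl3 at the upper right, and Mmp2 stands off it at -5.75 and -4.20.

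Whether the PDPN-sorted cells differed in the same way with and without CCR7 was tested as an interaction, in which the log2 fold change of X2-PDPN over X2 (batch 2) was subtracted from that of CCR7-PDPN over CCR7 (batch 1). All 31 members entered this fit, and 2 were called lower and 0 higher (6.45% and 0%, against 4.48% and 0.964% of all genes). The number called was 1 without CCR7-PDPN replicate 1 or 4 of batch 1 or X2 replicate 2 of batch 2, and 4 without X2-PDPN replicate 3. With Adamts6 the PDPN difference was -3.18 with CCR7 and -0.95 without, and the interaction was -2.23 ± 0.32 (adjusted p = 5.9e-07). Adamtsl3 fell with PDPN in the presence of CCR7 (-0.56) and rose without it (0.48), with an interaction of -1.03 ± 0.17 (adjusted p = 7.1e-06). That value moved to between -0.98 and -0.99 without CCR7 replicate 2, CCR7-PDPN replicates 1 or 4 of batch 1, or X2 replicate 2 of batch 2, and just inside the fold threshold without X2 replicate 4 of batch 2. Mmp2 had the largest estimate after Adamts6, -2.002 ± 0.84 (adjusted p = 0.055), which passed the test without CCR7 replicate 2 (-2.20), X2 replicate 4 (-2.16) or X2-PDPN replicates 2 (-2.28) or 3 (-2.15). The estimate rests on 2 reads in CCR7-PDPN of batch 1. Adam8 went from -0.56 without CCR7 to 0.35 with it, an interaction of 0.91 ± 0.28 (adjusted p = 0.0074), which passed the fold threshold without CCR7 replicate 1 (1.02) or X2-PDPN replicate 3 (1.07). Smaller interactions past the adjusted p included Mmp28 (-0.81 ± 0.12, adjusted p = 1.7e-06), Mmp9 (-0.69 ± 0.16, adjusted p = 4.8e-04) and Mmp19 (-0.43 ± 0.06, adjusted p = 1.9e-07), and in these 3 the difference of the PDPN-sorted cells from their comparator was smaller with CCR7 (CCR7-PDPN over CCR7) than without (X2-PDPN over X2). For Adam9, which passed the test for X2-PDPN over X2 and not for CCR7-PDPN over CCR7, the interaction was 0.41 ± 0.04 (adjusted p = 1.4e-09). For Timp2 the interaction was -0.03 ± 0.04 (adjusted p = 0.55). Each difference was taken within a batch, but CCR7 was sequenced in batch 1 only and X2-PDPN in batch 2 only, so a batch effect on the difference itself cannot be told apart from CCR7 in this test. For the 2 derivatives sequenced in both batches, the difference between them repeated as described above, with -2.28 and -2.34 for Adamts6.

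**Figure D5:**
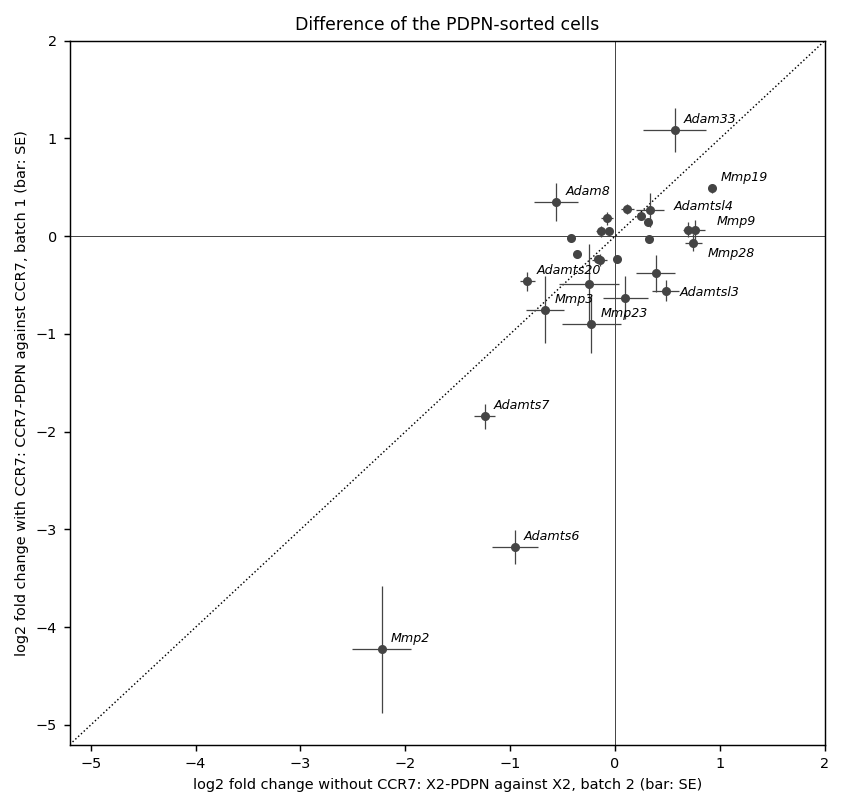
log2 fold change of the PDPN-sorted cells without CCR7 (X2-PDPN against X2, batch 2, x axis) and with CCR7 (CCR7-PDPN against CCR7, batch 1, y axis) for the 29 tested members, with SE as bars; equal values lie on the dotted line. Adamts6, at -0.95 and -3.18, lies furthest below the line, with Mmp2 next, and Mmp9, Mmp28 and Adamtsl4 lie to its right near 0 on the y axis.

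Genes that act with these proteases were examined as 6 lists, which share some genes. In the plasminogen system, 5 of 9 genes were tested, and the numbers called higher and lower over the 6 comparisons, in the order used above, were 0 and 3, 0 and 0, 0 and 3, 0 and 0, 0 and 2 and 0 and 3. For all genes tested the shares called higher were 3.30%, 0.664%, 4.09%, 3.51%, 2.76% and 3.96% in that order, and those called lower were 3.18%, 2.60%, 5.36%, 1.55%, 6.40% and 5.67%. The lists hold few tested genes, and their shares were not tested against these. Plat, tissue plasminogen activator, had 16.7 TPM in X2 of batch 1 and fell to 5.12 with CCR7 and 2.62 with CCR7 and PDPN (-1.71 ± 0.07, adjusted p = 2.0e-14 and -2.65 ± 0.08, adjusted p = 4.8e-17). Plau, urokinase, fell from 47 to 20.2 and 21.5 (-1.22 ± 0.06, adjusted p = 1.7e-13 and -1.10 ± 0.06, adjusted p = 4.2e-13). In X2-PDPN no gene of this list was called against X2.

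For MMP activation, retention and inhibition 10 of 14 genes were tested, with 0 and 1, 0 and 1, 0 and 2, 0 and 0, 0 and 4 and 0 and 2 called higher and lower. Thbs2, thrombospondin-2, a carrier in the clearance of MMP2, went from 1.18 and 1.42 TPM in X2 and CCR7 to 0.0600 in CCR7-PDPN of batch 1, and from 2.20 in X2-PDPN to 0.0544 in batch 2 (-4.47 ± 0.25, adjusted p = 1.7e-11 and -5.21 ± 0.23, adjusted p = 1.3e-23). Itgb3, a chain of the integrin that can bind MMP2, was lower in CCR7 against X2 (-1.04 ± 0.09, adjusted p = 1.9e-09), in CCR7-PDPN against X2 (-1.19 ± 0.09, adjusted p = 8.9e-16 in batch 2) and in CCR7-PDPN against X2-PDPN (-1.77 ± 0.08, adjusted p = 1.0e-22). Lrp1, the endocytic receptor for several of these enzymes and their complexes, fell from X2-PDPN to CCR7-PDPN (-1.34 ± 0.12, adjusted p = 4.0e-06). Of the genes that control ADAM10 and ADAM17, 8 of 12 were tested and 0 and 0, 0 and 0, 0 and 1, 1 and 0, 0 and 1 and 0 and 0 were called. Tspan33, a tetraspanin partner of ADAM10, was higher in X2-PDPN than in X2 (1.01 ± 0.19, adjusted p = 8.9e-06).

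Among 16 ligands and receptors shed by ADAMs, 13 were tested, and 0 and 3, 0 and 1, 0 and 3, 2 and 1, 0 and 4 and 0 and 3 were called higher and lower. The EGF-family ligand Areg was lower in CCR7 (-1.21 ± 0.18, adjusted p = 7.1e-06) and higher in X2-PDPN (1.01 ± 0.11, adjusted p = 1.9e-10), with group means of 8.78 TPM for X2, 17.8 for X2-PDPN and 4.99 for CCR7-PDPN of batch 2. Ereg, a related ligand, was lower with CCR7 (-1.35 ± 0.06, adjusted p = 4.6e-14 in CCR7 and -1.29 ± 0.05, adjusted p = 1.2e-26 in CCR7-PDPN of batch 2, each against X2). L1cam, an adhesion molecule shed by ADAM10, was lower in both PDPN-sorted groups, with log2 fold changes of -1.45 ± 0.05 (adjusted p = 3.5e-28) for X2-PDPN over X2 and -1.08 ± 0.06 (adjusted p = 5.5e-12) for CCR7-PDPN over CCR7. Of the other matrix proteases 10 of 18 were tested and 0 and 0, 0 and 2, 1 and 1, 0 and 0, 0 and 2 and 0 and 1 were called, with Hpse, heparanase, lower in CCR7-PDPN than in CCR7 (-1.75 ± 0.14, adjusted p = 2.4e-09) and X2-PDPN (-2.58 ± 0.14, adjusted p = 5.1e-20). Of the matrix substrates 10 of 18 were tested and 1 and 0, 0 and 1, 1 and 1, 2 and 0, 0 and 2 and 1 and 1 were called. Col3a1, a fibrillar collagen, was higher in CCR7 (1.97 ± 0.07, adjusted p = 2.4e-15), X2-PDPN (2.54 ± 0.06, adjusted p = 6.0e-32) and CCR7-PDPN (2.37 ± 0.07, adjusted p = 4.4e-17 in batch 1), each against X2.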

How the data were processed

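Per the labels and the study's methods, polyadenylated RNA of 24 libraries (4 derivatives of EO771 cells, 2 batches, 4 technical replicates each) was sequenced with a stranded kit as single reads of 75 bases and aligned to GRCm38/mm10. The authors deposited raw counts per Ensembl gene, 1 table per batch, and the batch 2 table holds fewer genes by a rule that, like the aligner and the strand setting of the counting, is not given in the sources used here. Library totals were 22275468 to 35721027 counts. Genes were tested within each batch with edgeR 4.0.16 in R 4.3.3 (TMM factors, filterByExpr, robust quasi-likelihood fit over the 3 groups, Benjamini-Hochberg adjustment), on 13261 genes in batch 1, 13314 in batch 2 and 13690 for the interaction over both. P-values measure the spread between technical replicates. TPM used the gene lengths given with the authors' counts. GENCODE vM21 gave the symbols of genes listed for batch 1 only and the transcripts searched for shared windows. Ratios of pooled reads have 95% exact binomial intervals. The step was tested on simulated data. Alternatives were DESeq2 1.42.0, other scaling factors and filters, only the 2 groups compared, glmTreat, the replicate number as a block, subtraction of the median of genes within 5 Mb, and each library left out. Members at 1 TPM or called in any comparison were named in full and the rest briefly, with partner genes where called, up to 4 per list, except 1 that is not reported here. Members and lists were chosen with earlier results of these data known. Figures used matplotlib 3.10.9.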

Additional observations from a re-analysis of the deposited data

Results flagged for a closer look

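Dixon's test at the 95% level was applied to the TPM of the 31 members in the 6 groups of 4 libraries. Chance gives 5% of these 186 sets of values, and 7 were past it, fewer than that share. The 7 values are thus not shown to be more than chance gives. Adamts4 was 17.9 in CCR7-PDPN replicate 4 of batch 2, against 15.9 to 16.2 in the others. Mmp9 was 10.3 in X2-PDPN replicate 3, against 7.49 to 7.77, and Adamts14 was 55.7 in the same library, against 49.8 to 50.5. Mmp19 was 29.01 in X2 replicate 3 of batch 2, against 30.0 to 30.1. Mmp14 was 85.4 in CCR7 replicate 1, against 80.0 to 80.8, and Adam17 was 66.4 in CCR7 replicate 2, against 63.2 to 63.7. Adamts10 was 16.7 in CCR7-PDPN replicate 3 of batch 2, against 13.7 to 14.1.

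The fit over both batches compared the difference of the PDPN-sorted cells with CCR7 (CCR7-PDPN over CCR7) and without (X2-PDPN over X2). The interaction passed both the adjusted p and the fold threshold for 2 of 31 members (6.45%). Both were lower, at -2.23 for Adamts6 and -1.03 for Adamtsl3 on the log2 scale. Of all genes 0.964% passed both upwards and 4.48% downwards. At the adjusted p alone 6 members passed upwards and 11 downwards. The shares of all genes at the adjusted p alone were not determined, so these 2 counts are not shown to be particular to the members. Adamtsl3 fell inside the fold threshold in 5 of the 24 fits that left out 1 library. CCR7 and X2-PDPN were each sequenced in 1 batch, so a batch effect on the difference cannot be told apart from CCR7.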

How the results depend on the processing

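Of 4519 values of single genes under the alternatives, 4209 kept their direction and their side of the threshold, 222 lost it, 51 gained it and 37 changed sign. Testing against a log2 fold change of 1 (glmTreat) left 3 members called for CCR7 and 5 for CCR7-PDPN over X2 of batch 1, and 1 for X2-PDPN over X2 and 3 for CCR7-PDPN over X2-PDPN of batch 2. For CCR7-PDPN over CCR7 it left 3 members, and for CCR7-PDPN over X2 of batch 2 it left 6. It left 4 partner genes for CCR7 over X2, 2 for CCR7-PDPN over CCR7, 6 for CCR7-PDPN over X2 in each batch, and 3 for X2-PDPN over X2. By construction this asks for more than the adjusted p with a fold threshold. With each library left out, the number of members called was 2 to 5 in X2-PDPN against X2 and 1 to 4 for the interaction. The replicate numbers did not pair the libraries: same-numbered libraries correlated between -0.12 and 0.05 in batch 1 and between -0.04 and 0.11 in batch 2, and 1 and 5 of 12 pairs were best with their own number. With the replicate block 5, 4, 8, 2, 6 and 8 members were called in the 6 comparisons, the same numbers as without it, and 3 for the interaction, with Mmp2 at -2.04 (adjusted p = 0.044). With the median of the genes within 5 Mb subtracted, the sign turned for Mmp14 in CCR7 against X2 (0.064), in CCR7-PDPN against X2 of batch 1 (0.22) and batch 2 (0.22) and against X2-PDPN (0.24), for Adam17 in CCR7-PDPN against CCR7 (-0.018) and against X2 (-0.13 and -0.10), for Adamts1 in CCR7-PDPN against X2 (-0.0095 and -0.031), for Adamts14 in CCR7 against X2 (-0.054), for Adamtsl5 in CCR7-PDPN against CCR7 (-0.0063) for Adam15 in X2-PDPN against X2 (-0.051) and for Adamts8 in CCR7 against X2 (-0.55) and X2-PDPN against X2 (-0.071). Upper-quartile factors gave -0.0008 for Adamts14 in CCR7 against X2. With each library left out, values that did not pass the adjusted p spanned 0. In CCR7 against X2 these were Adamts10 (-0.088 to 0.24), Adamts14 (-0.014 to 0.022) and Adamts8 (-0.055 to 0.14). In CCR7-PDPN against CCR7 they were Adam9 (-0.063 to 0.0002), Mmp28 (-0.14 to 0.0091) and Mmp9 (-0.0029 to 0.13). In batch 2 they were Adam15 (-0.0041 to 0.029) and Adamts8 (-0.021 to 0.25) in X2-PDPN against X2, and Adamts10 (-0.019 to 0.17) and Adamtsl5 (-0.057 to 0.041) in CCR7-PDPN against X2-PDPN. In the interaction they were Adamts10 (-0.18 to 0.15), Adamts3 (-0.53 to 0.026), Mmp10 (-0.38 to 1.69) and Mmp3 (-0.30 to 0.078). TPM over the genes of both tables changed no group mean by more than 0.296%. Members under 1 TPM rest on few reads, which limits the precision of their folds.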
